A study of Homo sapiens with 12 samples.

Results

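The genes described here encode the nuclear subunits of the mitochondrial respiratory chain. They were chosen by symbol and chromosome alone: protein-coding genes outside the mitochondrial chromosome named NDUFA, NDUFB, NDUFC, NDUFS or NDUFV (NDUFAF assembly factors left out), SDHA to SDHD, UQCR, COX4 to COX8 or ATP5. The rule took 90 of the 60675 genes in the files, and 81 of them reached 1 CPM (counts scaled to library size) in at least 2 libraries. These 81 were 39 of 40 genes of complex I, 4 of 4 of complex II, 9 of 9 of complex III, 11 of 17 of complex IV and 18 of 20 of complex V. Just below the limit lay COX6B2, whose second highest library held 0.532 CPM, and just above it lay NDUFA7, with 1.72 CPM.

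RNA was sequenced from LNCaP, a human prostate cancer line that depends on androgen, and from C4-2, a castration-resistant line derived from it. Every library came from cells in hormone-depleted serum with 0.1% DMSO and the synthetic androgen R1881 at 1 nM for 72 h. C4-2 cells received R1881 alone, with namoline (50 µM), an inhibitor of the histone demethylase KDM1A, with TCE-5002, a selective inhibitor of the demethylase KDM7A, or with both (the combination), and LNCaP cells received R1881 alone or the combination, with 2 biological replicates per group. By the study's account TCE-5002 acts on KDM7B (PHF8) and KDM2A as well, and which enzyme a response came from was not tested. The dose of TCE-5002 is 100 µM in the series text and lower in the study's methods, so it is uncertain here. Each line is a single culture lineage rather than a set of donors.

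The respiratory chain passes electrons from NADH (complex I) and succinate (complex II) through ubiquinone to complex III, cytochrome c and complex IV, which reduces oxygen. Complexes I, III and IV pump protons across the inner mitochondrial membrane, and ATP synthase (complex V) makes ATP as they flow back. A small set of core subunits is encoded by mitochondrial DNA, and all other subunits come from nuclear genes spread over the chromosomes. Prostate luminal cells are known for an unusual citrate metabolism, and prostate cancer cells for renewed oxidative use of citrate.

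Library totals ran from 14791602 to 20690819 counts. The libraries labelled LNCaP differed from C4-2 in marker genes. All 11 luminal epithelial markers reached 1 CPM in every group, with sums of 3910 to 4060 CPM in C4-2 and 921 to 990 CPM in LNCaP under R1881, while the 8 mesenchymal or stromal markers summed to 80.0 to 81.6 CPM and 775 to 868 CPM. The 6 neuroendocrine markers summed to 3.38 to 3.39 CPM in C4-2 and 137 to 138 CPM in LNCaP under R1881. The 5 immune and blood markers stayed at or under 1.56 CPM in sum in each group. HBB was at 0 in both LNCaP groups and in C4-2 under R1881 alone and with the combination. These 4 libraries are therefore called the libraries labelled LNCaP, and their identity was not tested. With 2 libraries per group, p-values rest on the spread between libraries within groups. That spread was estimated for each gene over all groups of a fit, with information shared across genes, and not for each group alone. In 1 of the 12 files, that of LNCaP combination replicate 1, the alignment named in the header carries a namoline tag alone, although the title gives both inhibitors, so the member counts and the named members that rest on it are also given without it. The replicates least alike were those of TCE-5002 (r = 0.981 across 10401 genes on the log2 scale, against 0.990 to 0.995 in the other groups, where genes are not independent replicates), and the member counts with TCE-5002 are also given without each of them.

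Together the members took 1.12% and 1.05% of all counts under R1881, 1.21% and 1.10% with namoline, 1.61% and 1.47% with TCE-5002, and 0.852% and 0.838% with the combination. Both TCE-5002 libraries lay above every other library, and both combination libraries below every other C4-2 library. In the libraries labelled LNCaP the share was 0.658% and 0.678% under R1881 and 0.722% and 0.776% with the combination, below every C4-2 library. Transcripts of the mitochondrial chromosome followed another order, with 5.58% to 5.64% of counts in the TCE-5002 libraries, 6.53% to 7.66% under R1881, 6.84% to 7.48% with the combination and 8.82% to 10.2% with namoline in C4-2, and 1.91% to 2.43% in the libraries labelled LNCaP. In bulk RNA, fewer cells of a type and less RNA per cell cannot be told apart.

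**Figure D1:**
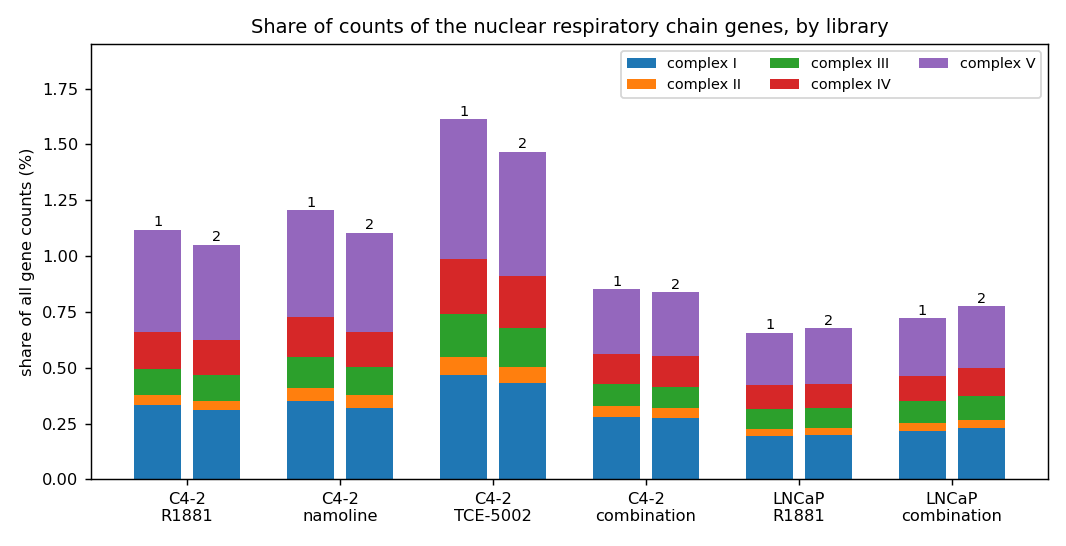
Share of all gene counts (%, linear axis from 0) taken by the members of each complex, with 1 bar per library and the replicate number above it. The TCE-5002 bars reach 1.61% and 1.47%, and the C4-2 combination bars 0.852% and 0.838%.

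Levels spanned a wide range within each complex. Per kilobase of exon in C4-2 under R1881, ATP5F1B, the catalytic beta subunit of ATP synthase, led all members at 640 CPM per kb. COX8A, a small subunit of complex IV, followed at 295, NDUFS5, an accessory subunit of complex I, at 232, UQCRH, the hinge protein of complex III, at 148 and SDHD, a membrane anchor of complex II, at 29.6 CPM per kb, each the highest of its complex. At the other end were UQCRHL (2.38 CPM per kb), NDUFA9 (2.23), NDUFV2 (2.03) and NDUFA7 (0.658). Counting without strand left out fragments shared by overlapping genes. The overlap was 61.6% of the exon length for ATP5ME, 49.1% for NDUFS7, 48.5% for NDUFB8, 34.5% for COX8A, 33.5% for NDUFA7 and 28.4% for NDUFV2. For NDUFA9 it was 9.89% and for UQCRHL 0. Counts of overlapping members therefore come from the unshared stretches, while the values per kb divide by the whole exon length and may be too low.

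Promoter sequence offers a feature that the choice of members did not use. RefSeq promoters (GRCh38.p14, 250 bases before to 50 after the start) were matched by symbol for 66 of the 81 members, and the unmatched ones included NDUFA4, NDUFA4L2, NDUFB5, NDUFB9, NDUFC2, NDUFS5, SDHC, UQCRB, UQCRHL, COX6C, ATP5F1B, ATP5F1D, ATP5MC3 and ATP5MF. On either strand, the NRF1-type letters GCATGCGC were found in 13 of 66 member promoters (19.7%) and in 3.3% of all 27305 promoters. The ETS-type letters CCGGAAG were in 20 of 66 (30.3%, against 10.7% of all), and the YY1-type letters AANATGGCG in 16 of 66 (24.2%, against 3.4%). In the 250 bases before the start alone the shares were 18.2%, 25.8% and 3.0% of members and 2.8%, 8.8% and 1.4% of all promoters, so that most YY1-type matches lay just after the start. A total of 31 member promoters held none of the 3 letter strings. All promoters include those of non-coding genes. Among promoters of protein-coding genes the shares were 4.3%, 14.4% and 4.9%.

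The following stretches are shown for 2 members that led the responses below (ATP5MC1 and COX6B1) and for 1 example of each motif (NDUFB4 for NRF1, UQCR11 for ETS, NDUFS8 for YY1). The examples have the lowest interaction value, described below, among members whose match lies inside the stretch that can be printed, and members with matches elsewhere in the window had lower values. Each stretch is the longest run before the start that no annotated exon covers, 5′ to 3′ on the strand of the gene, with motif matches in capitals. ATP5MC1 lies at chr17:48892678-48892764 (+), COX6B1 at chr19:35648073-35648222 (+), NDUFB4 at chr3:120596086-120596308 (+), UQCR11 at chr19:1605491-1605712 (-) and NDUFS8 at chr11:68030462-68030616 (+).
ATP5MC1: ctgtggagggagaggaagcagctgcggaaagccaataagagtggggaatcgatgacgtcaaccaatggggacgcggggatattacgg
COX6B1: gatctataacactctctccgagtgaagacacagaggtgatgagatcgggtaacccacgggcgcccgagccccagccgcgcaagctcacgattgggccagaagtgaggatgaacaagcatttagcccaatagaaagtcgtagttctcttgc
NDUFB4: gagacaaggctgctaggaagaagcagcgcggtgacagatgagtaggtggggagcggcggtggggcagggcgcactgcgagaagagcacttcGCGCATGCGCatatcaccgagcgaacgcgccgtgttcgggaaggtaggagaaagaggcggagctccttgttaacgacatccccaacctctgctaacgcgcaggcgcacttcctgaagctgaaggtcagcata
UQCR11: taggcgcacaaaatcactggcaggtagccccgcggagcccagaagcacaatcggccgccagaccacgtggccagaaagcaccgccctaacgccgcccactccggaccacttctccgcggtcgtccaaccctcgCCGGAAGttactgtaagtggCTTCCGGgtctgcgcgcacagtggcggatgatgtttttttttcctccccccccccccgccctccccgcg
NDUFS8: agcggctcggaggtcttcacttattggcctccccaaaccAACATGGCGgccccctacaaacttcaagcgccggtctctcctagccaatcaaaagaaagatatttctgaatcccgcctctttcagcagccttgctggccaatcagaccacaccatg
The whole window of ATP5MC1 held none of the 3 strings, while that of COX6B1 held the ETS-type letters outside the stretch printed. The capitals in NDUFB4 mark 2 overlapping NRF1-type matches on opposite strands, those in UQCR11 mark an ETS-type match on each strand, and those in NDUFS8 mark a YY1-type match. A match describes the letters only.

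Namoline was compared with R1881 alone in C4-2 to see which members moved when KDM1A was inhibited. The strongest rises were in ATP synthase subunit c and complex IV: ATP5MC1, COX6B1 and ATP5MC3 rose, while NDUFA4L2, COX7A2L and NDUFC1 fell. Of 81 members, 22 rose and 3 fell at an adjusted p under 0.05 (edgeR's quasi-likelihood F test, Benjamini-Hochberg over 17702 genes), and the background over all genes tested was 18.7% higher and 16.3% lower. The median log2 fold change was 0.22 for the members and -0.0043 for all genes. Past 2-fold lay 3 members, against 12.1% of all genes. Among the 10284 genes at a mean of 10 CPM or more, 26.8% were higher and 16.3% lower (median 0.08), so the share of members that rose, 27.2%, was near that of genes at such levels, and the share that fell was 3.70%. With library totals alone as scaling, the calls were 11 higher and 8 lower, and without C4-2 R1881 replicate 1 or 2, or namoline replicate 1 or 2, they were 11, 8, 7 and 9 higher. The number of members that rose with namoline therefore depends on each of these libraries.

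ATP5MC1 (ENSG00000159199, chromosome 17, 48892765 to 48895871) encodes subunit c, the proton-carrying ring of ATP synthase. Its level was 36.0 and 32.0 CPM under R1881 and 83.8 and 81.7 CPM with namoline (log2 1.27 ± 0.11, SE, adjusted p = 1.6e-06). The groups did not overlap, and the namoline libraries were more than 2-fold above. COX6B1 (ENSG00000126267, chromosome 19, 35648223 to 35658861), a subunit on the intermembrane face of complex IV, stood at 68.2 and 69.7 CPM under R1881 and 150 and 131 CPM with namoline (log2 1.01 ± 0.11, adjusted p = 9.8e-06). ATP5MC3 (ENSG00000154518, chromosome 2), another gene of subunit c, went from 125 and 110 CPM to 230 and 203 CPM (log2 0.87 ± 0.13, adjusted p = 0.00012).

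NDUFA4L2 (ENSG00000185633, chromosome 12, 57234903 to 57240715), a paralog of NDUFA4 known as a target of the hypoxia response, was at 26.5 and 35.4 CPM under R1881 and 5.80 and 10.1 CPM with namoline. Its log2 fold change was -1.97 ± 0.33 (adjusted p = 0.0004), the lowest of the members, with both namoline libraries below both R1881 libraries. COX7A2L, known as a supercomplex assembly factor, went from 99.1 and 93.7 CPM to 73.5 and 58.9 CPM (log2 -0.55 ± 0.14, adjusted p = 0.008), but its adjusted p was 0.079 without C4-2 R1881 replicate 1 (log2 -0.50) and 0.13 without namoline replicate 2 (log2 -0.42). NDUFC1, a small membrane subunit of complex I, went from 71.3 and 66.5 CPM to 53.5 and 49.6 CPM (log2 -0.43 ± 0.13, adjusted p = 0.016). Its call was lost without C4-2 R1881 replicate 1 (log2 -0.37), R1881 replicate 2 (log2 -0.48) or namoline replicate 2 (log2 -0.39).

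TCE-5002 against R1881 alone gave the broadest rise. Members of every complex rose, led by ATP5MC1, COX6B1 and NDUFS7, and NDUFA4L2 was the single member that fell. In total 66 of 81 members rose and 1 fell, over a background of 19.9% higher and 16.7% lower among 17702 genes, with a median log2 fold change of 0.61 against -0.0001 for all genes. By complex, 30 of 39 genes of complex I rose (median 0.59), 4 of 4 of complex II (0.92), 8 of 9 of complex III (0.84), 9 of 11 of complex IV (0.66) and 15 of 18 of complex V (0.51). Leaving out TCE-5002 replicate 1 gave medians of 0.52, 0.69, 0.68, 0.66 and 0.30 for complexes I to V. Leaving out replicate 2 gave 0.66, 1.02, 1.00, 0.73 and 0.71, so the value of complex V depends on which library is used. Among the 10284 genes at a mean of 10 CPM or more, 27.3% were higher and 16.8% lower (median 0.07). Past 2-fold lay 9 members, against 11.8% of all genes. The summed luminal markers were at 5880 to 5990 CPM with TCE-5002, against 3910 to 4060 CPM under R1881, and their part in the result was not tested. Without TCE-5002 replicate 1 or 2 the members that rose numbered 59 and 71, those past 2-fold 7 and 17, and the median was 0.54 and 0.71. The comparisons of namoline, TCE-5002 and the combination share the C4-2 R1881 libraries.

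ATP5MC1 reached 101 and 100 CPM with TCE-5002 (log2 1.56 ± 0.11, adjusted p = 5.0e-07), above both namoline libraries. COX6B1 reached 195 and 186 CPM (log2 1.47 ± 0.11, adjusted p = 6.6e-07) and ATP5MC3 317 and 257 CPM (log2 1.29 ± 0.13, adjusted p = 5.2e-06). NDUFS7, an iron-sulphur subunit next to the ubiquinone site of complex I, stood at 29.4 and 33.3 CPM under R1881 and 56.7 and 102 CPM with TCE-5002 (log2 1.34 ± 0.20, adjusted p = 0.00016), so its treated replicates were far apart. NDUFA4L2 fell to 5.91 and 15.6 CPM (log2 -1.52 ± 0.32, adjusted p = 0.0021), again with no overlap. Without TCE-5002 replicate 1 or 2 the log2 fold changes were 1.70 and 0.87 for NDUFS7 and -0.98 and -2.37 for NDUFA4L2, and both members stayed called. The 14 members not called in either direction included ATP5MC2, COX6A1, COX7A2L, ATP5F1E and ATP5IF1, with log2 fold changes of 0.02, 0.27, 0.01, 0.32 and 0.15.

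**Figure D2:**
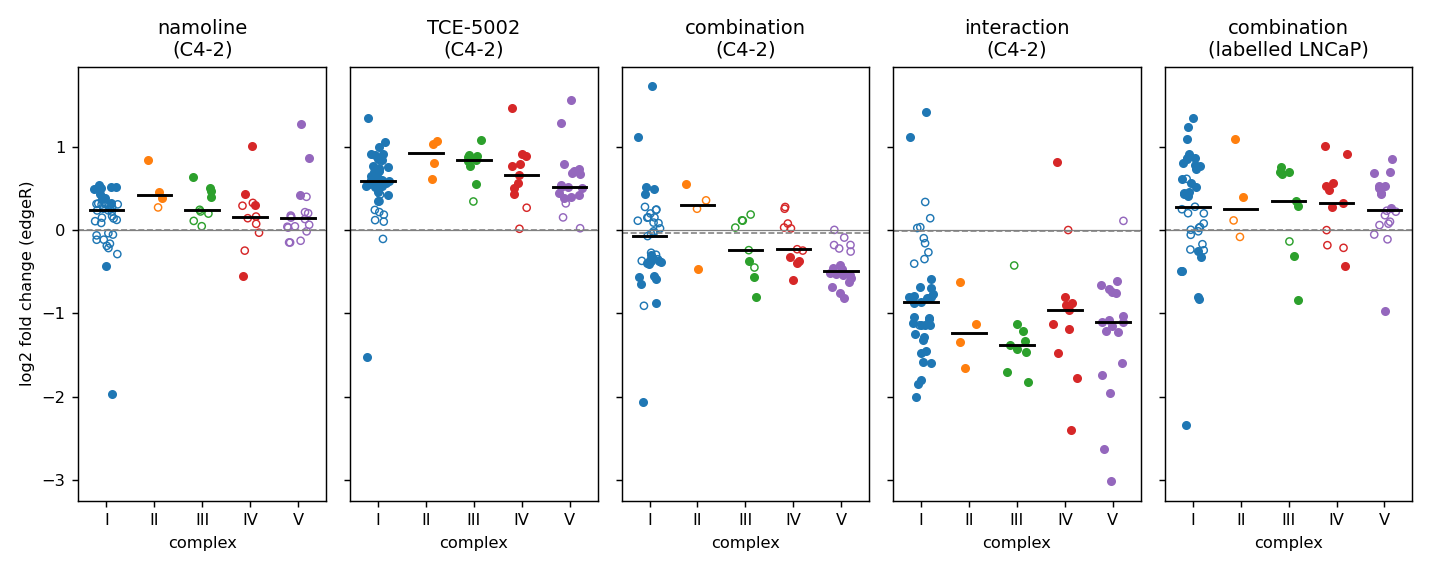
Log2 fold change of each of the 81 members by complex for 5 contrasts (linear axis in log2 units, filled points at an adjusted p under 0.05, black bars at the median of the complex, dashed line at the median of all genes tested). Points lie mostly above 0 with TCE-5002 (median 0.61 over all members), mostly below 0 for the interaction (median -1.10), and those of complex V at or below 0.001 with the C4-2 combination.

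The combination against R1881 in C4-2 had the opposite balance. Most subunits of ATP synthase fell, and the members that rose were NDUFV2, NDUFB8, SDHB, NDUFB9, NDUFS4 and NDUFS8 (NDUFB9 named after its value was seen). The NDUFS4 call (log2 0.49, adjusted p = 0.018) was lost with library totals alone (0.36) and without C4-2 R1881 replicate 2 (0.40), combination replicate 1 (0.49) or combination replicate 2 (0.50). The NDUFS8 call (log2 0.43, adjusted p = 0.0066) was lost without C4-2 R1881 replicate 1 (0.40) or combination replicate 1 (0.43). Of 81 members 6 rose and 34 fell, over a background of 24.8% higher and 25.6% lower, with a median log2 fold change of -0.26 against -0.034 for all genes. In complex V 12 of 18 fell and the others were not called (median -0.49; DESeq2's Wald test over all members gave 29 lower and 9 higher in place of 34 and 6). In complex I 14 fell and 5 rose (median -0.07), in complex III 3 of 9 fell (median -0.24), in complex IV 4 of 11 fell (median -0.23) and in complex II 1 fell and 1 rose (median 0.31). Of the genes at a mean of 10 CPM or more, 31.6% were higher and 25.1% lower (median 0.07). Past 2-fold lay 3 members, against 21.7% of all genes, so few of the shifts were large. The summed luminal markers were at 2530 CPM in both combination libraries, and their part was not tested. The 34 that fell became 15 without C4-2 R1881 replicate 1, 17 without combination replicate 1 and 16 without combination replicate 2.

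Within ATP synthase the parts differed. All 5 genes of the F1 head and central stalk fell, with log2 fold changes from -0.76 to -0.42, as did all 5 other membrane subunits (-0.81 to -0.46). Among the latter, the call of ATP5MG was lost without C4-2 R1881 replicate 1 (log2 -0.45). None of the 4 peripheral stalk genes was called by edgeR, with log2 fold changes of -0.26 to -0.09 and a lowest adjusted p of 0.15. ATP5F1B stood at 1505 and 1468 CPM under R1881, 1731 and 1716 CPM with namoline, 2030 and 1835 CPM with TCE-5002 and 961 and 991 CPM with the combination (log2 -0.63 ± 0.11, adjusted p = 0.0003). ATP5MF, subunit f of the membrane part, went from 152 and 142 CPM to 85.1 and 84.2 CPM (log2 -0.81 ± 0.11, adjusted p = 4.0e-05). ATP5IF1, the inhibitor that binds the F1 part, went from 156 and 149 CPM to 102 and 113 CPM (log2 -0.53 ± 0.12, adjusted p = 0.0016). The grouping by part was made after the values were seen.

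Single members of complex I went further. NDUFA4L2 stood at 7.50 and 7.44 CPM with the combination (log2 -2.07 ± 0.33, adjusted p = 0.00016), close to its levels with either inhibitor alone. NDUFB1, a membrane subunit, went from 66.2 and 59.9 CPM to 31.6 and 38.2 CPM (log2 -0.88 ± 0.17, adjusted p = 0.00061). NDUFV2 (ENSG00000178127, chromosome 18, 9102630 to 9134345), an iron-sulphur subunit of the NADH-oxidising arm, rose from 5.44 and 5.53 CPM to 17.6 and 19.3 CPM (log2 1.72 ± 0.17, adjusted p = 2.1e-06), while with namoline it was at 6.39 and 6.96 CPM and with TCE-5002 at 7.46 and 6.44 CPM. Only the combination libraries were high. Its 28.4% of shared exon length overlaps AP005263.1, which was listed at 0, and whether all NDUFV2 transcripts moved alike was not tested. NDUFB8, a membrane accessory subunit with 48.5% of shared exon length, was at 9.20 and 8.66 CPM under R1881 and 20.3 and 18.9 CPM with the combination (log2 1.11 ± 0.16, adjusted p = 5.0e-05).

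In complex II, SDHA carries the flavin, SDHB the iron-sulphur clusters, and SDHC and SDHD anchor the enzyme in the membrane. The complex has no mitochondrially encoded subunit. SDHA stood at 144 and 152 CPM under R1881, 254 and 282 CPM with namoline, 310 and 311 CPM with TCE-5002 and 178 and 180 CPM with the combination. It rose with namoline (log2 0.84 ± 0.11, adjusted p = 3.1e-05) and TCE-5002 (log2 1.07 ± 0.11, adjusted p = 5.1e-06), and its combination value was 0.25 ± 0.11 (adjusted p = 0.057). SDHB (ENSG00000117118, chromosome 1, 17018722 to 17054170) stood at 68.7 and 67.7 CPM under R1881, 93.1 and 85.8 CPM with namoline, 131 and 107 CPM with TCE-5002 and 102 in both combination libraries. All its treated libraries were above both R1881 libraries, with log2 0.80 ± 0.12 for TCE-5002 (adjusted p = 0.00015) and 0.55 ± 0.12 for the combination (adjusted p = 0.0015).

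SDHC stood at 131 and 129 CPM under R1881, 215 and 180 CPM with TCE-5002 and 95.0 and 96.1 CPM with the combination, where it fell (log2 -0.47 ± 0.11, adjusted p = 0.0037). Without combination replicate 2 the adjusted p of that fall was 0.053 (log2 -0.46). SDHD stood at 76.7 and 72.1 CPM, 180 and 125 CPM with TCE-5002 (log2 1.03 ± 0.15, adjusted p = 0.00011) and 98.5 and 94.8 CPM with the combination (log2 0.36 ± 0.15, adjusted p = 0.057). SDHB thus rose and SDHC fell with the combination. With namoline, SDHB (log2 0.38, adjusted p = 0.023) and SDHD (log2 0.45, adjusted p = 0.027) rose, and each lost that call when C4-2 R1881 replicate 1 or 2 or namoline replicate 1 or 2 was left out (log2 0.30 to 0.43 and 0.35 to 0.52).

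The interaction asks whether the combination differed from the sum of the single effects on the log2 scale. It was negative for most members: 65 of 81 were called lower and 3 higher than that sum, over a background of 27.9% lower and 25.6% higher, with a median of -1.10 against -0.01 for all genes. At a mean of 10 CPM or more, 35.1% of genes were lower and 28.1% higher (median -0.11). Past 2-fold lay 47 members, against 35.3% of all genes, 45 of them lower. By complex, 27 of 39 genes of complex I, 4 of 4 of complex II, 8 of 9 of complex III, 9 of 11 of complex IV and 17 of 18 of complex V were lower. Without TCE-5002 replicate 1 or 2 the lower members numbered 64 and 69, and the median was -0.91 and -1.19.

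The lowest interaction values were those of ATP5MC1 (-3.01 ± 0.16, adjusted p = 4.3e-09), ATP5MC3 (-2.63 ± 0.18, adjusted p = 3.7e-08) and COX6B1 (-2.40 ± 0.16, adjusted p = 2.3e-08). All these genes rose with each inhibitor alone, but with both present ATP5MC1 was at 30.5 in both libraries, ATP5MC3 at 86.2 and 86.0 and COX6B1 at 72.8 and 74.9 CPM, at or below the lower R1881 library for the subunit c genes and just above both for COX6B1. Against R1881 the combination values were -0.18 ± 0.12 (adjusted p = 0.21) for ATP5MC1, -0.47 ± 0.13 (adjusted p = 0.0069) for ATP5MC3 and 0.08 ± 0.11 (adjusted p = 0.59) for COX6B1. The ATP5MC3 call was lost without C4-2 R1881 replicate 1 (log2 -0.37), combination replicate 1 (-0.47) or combination replicate 2 (-0.46).

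The 3 highest interaction values were NDUFA4L2 (1.42 ± 0.48, adjusted p = 0.022), NDUFV2 (1.11 ± 0.25, adjusted p = 0.0016) and COX7A2L (0.82 ± 0.20, adjusted p = 0.0034). NDUFA4L2 fell by similar amounts under all 3 treatments, and its interaction was positive because the falls were less than additive on the log2 scale. Its adjusted p was 0.06 without C4-2 R1881 replicate 2 (log2 1.19), 0.088 without namoline replicate 1 (1.09) and 0.052 without combination replicate 1 (1.40), and DESeq2 gave 0.11 (1.47). COX7A2L stood at 108 and 86.3 CPM with TCE-5002 and 108 and 130 CPM with the combination, against 73.5 and 58.9 CPM with namoline. Members without an interaction call, 13 in all, included ATP5MC2 (0.11), COX6A1 (-0.0007) and NDUFS4 (-0.10).

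**Figure D3:**
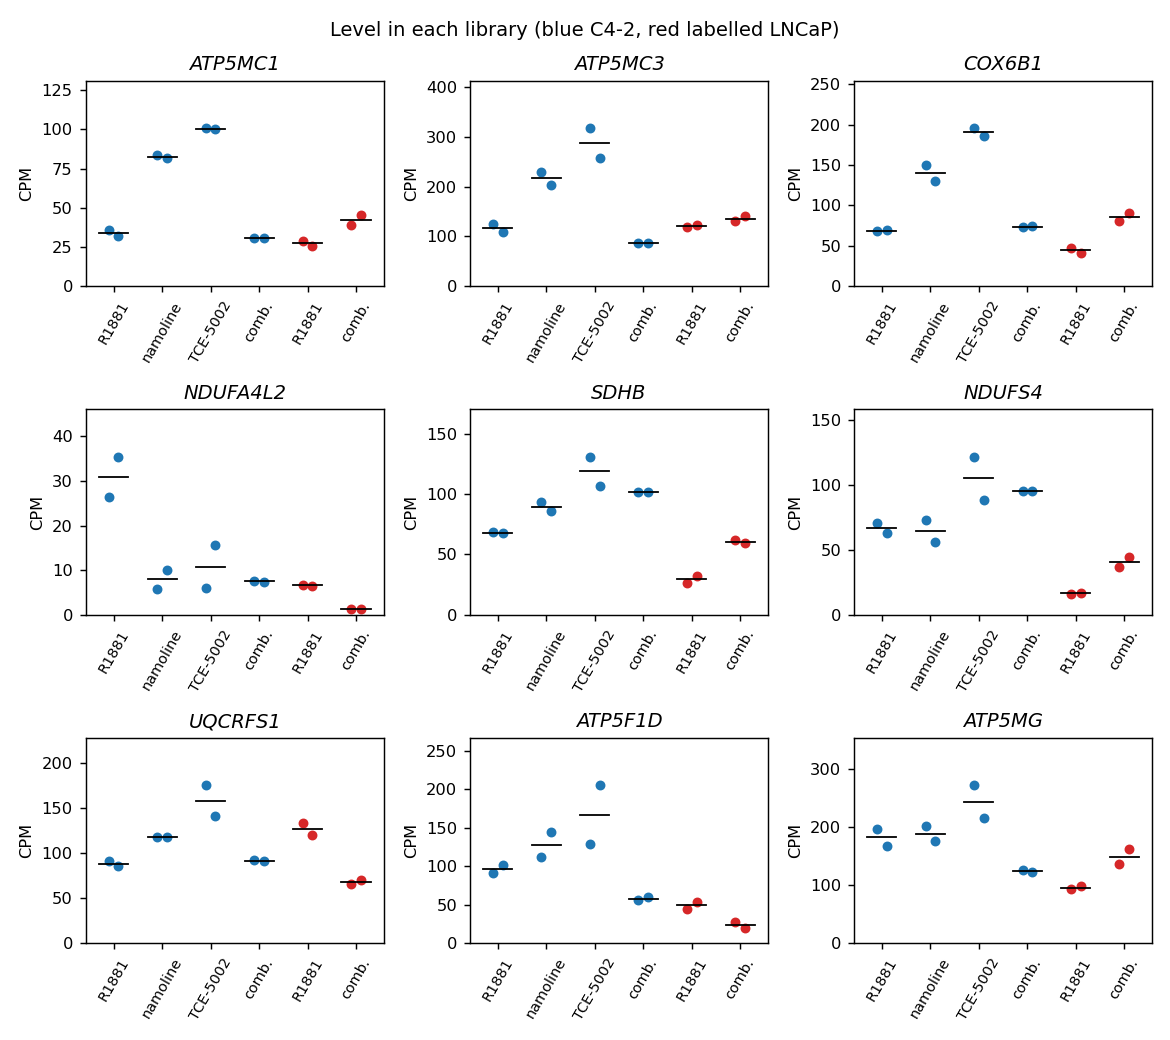
CPM of 9 members in each of the 12 libraries (linear axes from 0, points for libraries, bars for the mean of 2, blue for C4-2 and red for the libraries labelled LNCaP). In C4-2, ATP5MC1, ATP5MC3 and COX6B1 are high with either inhibitor. With both, ATP5MC1 and COX6B1 are near the R1881 libraries of C4-2 and ATP5MC3 is below them. In the libraries labelled LNCaP, ATP5MC1 and COX6B1 are higher with both inhibitors than under R1881. NDUFA4L2 is highest under R1881 in each line.

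Several subunits have paralogous genes, and those of subunit c and of NDUFA4 moved apart. ATP5MC1, ATP5MC2 and ATP5MC3 encode the same mature subunit c behind different import signals. Their summed level was 314 and 305 CPM under R1881 in C4-2, 468 and 422 CPM with namoline, 581 and 514 CPM with TCE-5002 and 271 and 283 CPM with the combination. ATP5MC2 itself stayed between 137 and 167 CPM in the 8 C4-2 libraries, with log2 fold changes of -0.13, 0.02 and 0.001 (adjusted p = 0.39, 0.90 and 1). Its share of the sum was thus 48.6% and 53.6% under R1881, 33.0% and 32.4% with namoline, 28.2% and 30.4% with TCE-5002 and 56.9% and 58.9% with the combination. The sum in the libraries labelled LNCaP was 340 and 356 CPM under R1881 and 350 and 376 CPM with the combination.

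**Figure D4:**
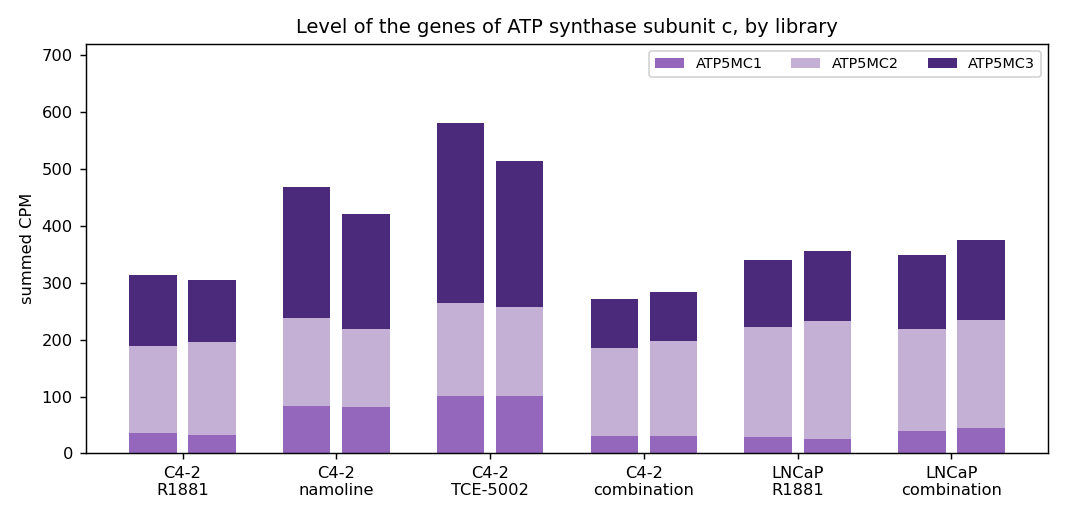
Stacked CPM (linear axis from 0) of the 3 genes of ATP synthase subunit c in each library. The ATP5MC2 segment stays between 137 and 167 CPM in C4-2, while the segments of ATP5MC1 and ATP5MC3 are larger in the namoline and TCE-5002 libraries.

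NDUFA4, grouped with complex I by its symbol but known as a complex IV subunit, and NDUFA4L2 moved in opposite directions with TCE-5002. NDUFA4 stood at 185 and 144 CPM under R1881, 356 and 266 CPM with TCE-5002 (log2 0.92 ± 0.16, adjusted p = 0.0005) and 130 and 133 CPM with the combination (log2 -0.35 ± 0.16, adjusted p = 0.079). NDUFA4L2 made up 12.5% and 19.8% of their sum under R1881 and between 1.63% and 5.55% in the treated C4-2 libraries. In the libraries labelled LNCaP its share was 9.85% and 9.17% under R1881 and 1.26% and 1.02% with the combination.

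In complex IV the widely expressed isoforms carried the counts. COX4I1 and COX5A, which surround the catalytic core, rose with TCE-5002 (log2 0.76 and 0.79, adjusted p = 0.00012 and 8.4e-05), as did COX5B (0.66, adjusted p = 0.00044), COX7A2 (0.92, adjusted p = 0.0002) and COX7B (0.88, adjusted p = 0.00035). COX8A had a log2 fold change of 0.51 with TCE-5002 (adjusted p = 0.016), which was 0.43 without C4-2 R1881 replicate 1 and 0.24 without TCE-5002 replicate 2, both uncalled. COX6A1 was at 102 and 113 CPM under R1881 and 120 and 138 CPM with TCE-5002 (log2 0.27 ± 0.13, adjusted p = 0.11). The tissue-restricted isoforms were near 0: over all 12 libraries COX4I2 had 1 count, COX6A2 3, COX8C 17, COX7B2 24, COX7A1 39 and COX6B2 49. COX6B2, the testis isoform, was tested in the LNCaP fit alone, where it went from 0.792 and 0.501 CPM to 0.121 and 0.102 CPM (log2 -2.42 ± 0.76, adjusted p = 0.0075), below the level set for members. UQCRHL, a near-identical copy of UQCRH whose reads may be split with it, made up 1.62% to 3.57% of their sum.

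The combination against R1881 in the libraries labelled LNCaP gave a rise in most members. NDUFS4, NDUFB8 and SDHB led, and NDUFA4L2, ATP5F1D and UQCRFS1 fell. Of 81 members 42 rose and 11 fell, over a background of 28% higher and 28.2% lower among 17565 genes. The median was 0.29 against -0.0049 for all genes, and 6 members lay past 2-fold, against 18.7% of all genes. Of the 10365 genes at a mean of 10 CPM or more, 35.1% were higher and 30.1% lower (median 0.04). Without LNCaP combination replicate 1, whose header differs from its title, 45 rose and 8 fell, 10 lay past 2-fold and the median was 0.42. Without LNCaP R1881 replicate 1, 34 rose and 7 fell. The summed luminal markers went from 921 to 990 CPM under R1881 to 414 to 540 CPM with the combination, and their part in the result was not tested. All 4 peripheral stalk genes of ATP synthase rose (log2 0.43 to 0.85).

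NDUFS4 (ENSG00000164258, chromosome 5, 53560633 to 53683340), an accessory subunit near the NADH-oxidising arm, was at 16.2 and 17.0 CPM under R1881 and 36.6 and 44.5 CPM with the combination (log2 1.35 ± 0.13, adjusted p = 3.4e-10; 1.48 without combination replicate 1). SDHB went from 26.7 and 32.2 CPM to 61.6 and 59.5 CPM (log2 1.10 ± 0.12, adjusted p = 2.7e-09; 1.07 without it). NDUFB8 went from 7.64 and 7.60 CPM to 18.4 and 16.2 CPM (log2 1.24 ± 0.16, adjusted p = 1.1e-07; 1.14 without it). None of these groups overlapped. COX6B1 also rose, from 47.9 and 40.8 CPM to 80.8 and 90.5 CPM (log2 1.01 ± 0.11, adjusted p = 4.6e-09; 1.08 without it).

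NDUFA4L2 fell from 6.66 and 6.51 CPM to 1.27 and 1.22 CPM (log2 -2.34 ± 0.29, adjusted p = 2.2e-08; -2.37 without combination replicate 1). ATP5F1D, the delta subunit of the F1 central stalk, fell from 45.1 and 53.4 CPM to 28.2 and 20.4 CPM (log2 -0.97 ± 0.14, adjusted p = 3.2e-07; -1.22 without it). UQCRFS1, the Rieske iron-sulphur protein of complex III, fell from 134 and 120 CPM to 66.4 and 70.2 CPM (log2 -0.83 ± 0.11, adjusted p = 4.4e-08; -0.80 without it), whereas in C4-2 it was at 91.8 and 85.6 CPM under R1881 and 92.1 and 91.7 CPM with the combination.

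The difference between the lines in the combination effect was tested on the 8 libraries of both lines. It was called below 0 for 51 members (a lower combination effect in C4-2) and above 0 for 7, over a background of 25.9% and 21.7% among 19763 genes, with a median of -0.63 against -0.0991 for all genes. Of the 10401 genes at a mean of 10 CPM or more, 34.3% were called below and 30.8% above 0 (median -0.05). Past 2-fold lay 15 members, against 25.3% of all genes. Without LNCaP combination replicate 1 55 were called below and 7 above 0, 25 past 2-fold and a median of -0.73. Those called above 0 became 4 without C4-2 R1881 replicate 1, without C4-2 R1881 replicate 2 or without C4-2 combination replicate 1. In complex V 16 of 18 members were called with all libraries used, all below 0 (median -0.76). Without LNCaP combination replicate 1 that median was -0.85, while ATP5F1D lay above 0 (0.39). With the combination, 7 members (8.64%) fell in both lines (NDUFA4L2, ATP5F1D, COX8A, NDUFA2, NDUFB7, NDUFB11 and UQCRQ, the last 4 named after their values were seen), against 8.32% of the 15283 genes tested in both fits. A further 4 (4.94%) rose in both (SDHB, NDUFS4, NDUFB8 and NDUFB9), against 9.06% of all genes, and 15 (18.5%) fell in C4-2 and rose in the libraries labelled LNCaP, against 6.69%. Without LNCaP combination replicate 1 these were 4, 4 and 18 members. The fall of COX8A in C4-2 (log2 -0.38, adjusted p = 0.049) was lost by DESeq2 (-0.35), with the length correction (-0.25), with RLE scaling (-0.35) and without any 1 of the 4 C4-2 libraries compared (-0.48 to -0.27).

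ATP5MG, subunit g at the dimer interface of ATP synthase, was at 196 and 167 CPM under R1881 and 126 and 122 CPM with the combination in C4-2, and at 93.5 and 97.7 CPM and then 136 and 162 CPM in the libraries labelled LNCaP. The difference was -1.32 ± 0.14 (adjusted p = 3.2e-08; -1.46 without LNCaP combination replicate 1). UQCRH fell from 219 and 198 CPM to 140 and 146 CPM in C4-2 and rose from 146 and 144 CPM to 200 and 250 CPM in the other line (difference -1.31 ± 0.14, adjusted p = 3.2e-08; -1.48 without that library). NDUFA4 gave -1.26 ± 0.15 (adjusted p = 3.0e-07; -1.40 without it). On the other side were NDUFV2 (1.91 ± 0.34, adjusted p = 6.4e-05), NDUFS8, an iron-sulphur subunit of the arm that leads to ubiquinone (0.88 ± 0.13, adjusted p = 7.6e-06), and NDUFS7 (0.87 ± 0.19, adjusted p = 0.00044), which gave 1.74, 1.00 and 1.03 without that library. NDUFV2 in the libraries labelled LNCaP was at 1.27 to 2.19 CPM.

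**Figure D5:**
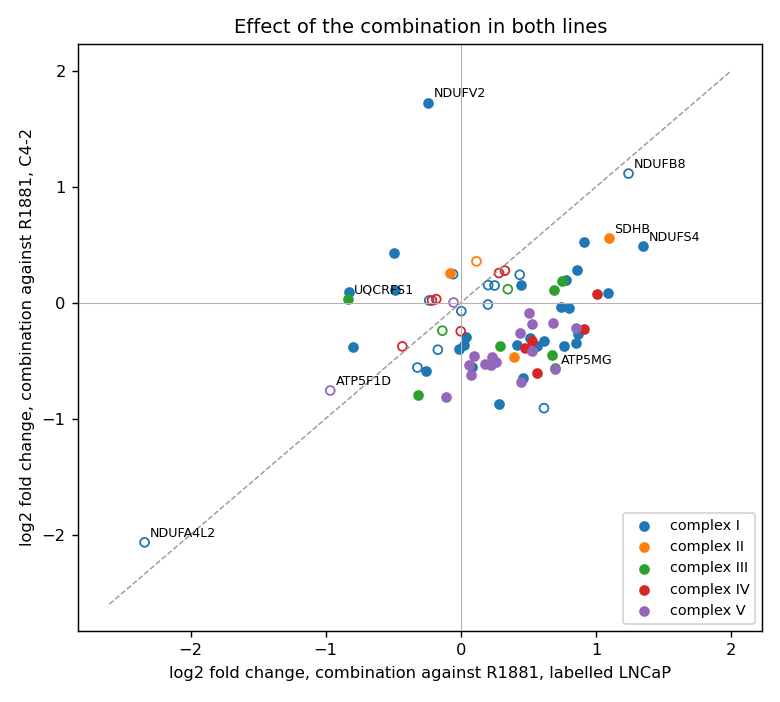
Log2 fold change of the combination against R1881 for each of the 81 members in C4-2 (vertical axis) and in the libraries labelled LNCaP (horizontal axis), with filled points where the difference between the lines had an adjusted p under 0.05 and a dashed line of equal effects. Most points lie below the line, with NDUFV2 (1.72 and -0.24) the farthest above it.

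Under R1881 alone, C4-2 had the higher levels of most members. Of 81, 62 were higher in C4-2 and 5 lower, over a background of 37.8% higher and 39% lower. The median was 0.65 against 0.0005 for all genes, and 25 members lay past 2-fold, against 50.5% of all genes. Of the 10401 genes at a mean of 10 CPM or more, 42.7% were higher and 40.9% lower (median 0.03). NDUFA4L2 (2.25 ± 0.15, adjusted p = 2.9e-12), NDUFA5, a peripheral arm subunit of complex I (2.23 ± 0.10, adjusted p = 9.0e-16), and NDUFS4 (2.04 ± 0.11, adjusted p = 3.9e-14) were the highest. NDUFA5 was at 167 and 156 CPM in C4-2 and 32.6 and 37.4 CPM in the libraries labelled LNCaP. Lower in C4-2 were NDUFS7 (-0.77 ± 0.13, adjusted p = 1.0e-05), NDUFA11, a membrane arm subunit (-0.57 ± 0.13, adjusted p = 0.00027), and UQCRFS1 (-0.49 ± 0.09, adjusted p = 2.3e-05). The marker sums that differ between the lines are given above, and their part in these differences was not tested.

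Related genes of the pathway were described in the same fits. Over all genes tested, 18.7% rose and 16.3% fell with namoline, 19.9% and 16.7% with TCE-5002 and 24.8% and 25.6% with the combination. Among genes at a mean of 10 CPM or more, these shares were 26.8% and 16.3%, 27.3% and 16.8%, and 31.6% and 25.1%. Of the 16 TCA cycle genes, which supply electrons to the chain, 13 rose with namoline (81.2%, median 0.55) and the others were not called. With TCE-5002 13 rose (81.2%, 0.69), and with the combination 4 rose and 6 fell (25% and 37.5%, -0.06). In the interaction 14 were called below 0 (87.5%, -1.27), against 27.9% of all genes and 35.1% at 10 CPM or more. CYC1 and CYCS, cytochrome c1 and cytochrome c, rose with namoline (0.58 and 0.66) and TCE-5002 (0.93 and 0.86), and neither was called with the combination (0.04 and 0.32). The 46 assembly factors gave 14 rises and 4 falls with namoline (30.4% and 8.7%), 22 and 3 with TCE-5002 (47.8% and 6.52%) and 8 and 9 with the combination (17.4% and 19.6%), the last below the 24.8% and 25.6% of all genes. In the libraries labelled LNCaP they gave 17 and 14 (37% and 30.4%). Their median there was 0.05, and 0.16 without LNCaP combination replicate 1. The shares there were 28% and 28.2% of all genes and 35.1% and 30.1% of genes at 10 CPM or more. The 78 mitochondrial ribosomal proteins, which translate the mitochondrially encoded subunits, gave 29 rises and 2 falls with namoline (37.2% and 2.56%), 33 and 2 with TCE-5002 (42.3% and 2.56%) and 25 and 15 with the combination (32.1% and 19.2%). Without TCE-5002 replicate 1 or 2, the TCE-5002 rises numbered 13 and 15 for the TCA cycle, 19 and 29 for the assembly factors and 31 and 50 for the ribosomal proteins.

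The 13 subunits encoded by mitochondrial DNA are given beside their nuclear partners. With namoline 9 rose (median 0.57), with TCE-5002 5 fell (median -0.19), with the combination 1 rose and 1 fell (median -0.12), and in the libraries labelled LNCaP 2 rose and 8 fell (median -0.31), as many as without combination replicate 1. The share that rose with namoline was 69.2%, against 18.7% of all genes. The share that fell with TCE-5002 was 38.5%, against 16.7% of all genes, and the share that fell in LNCaP was 61.5%, against 28.2%. With the combination in C4-2, 7.69% rose and 7.69% fell, against 24.8% and 25.6%. All 13 were higher in C4-2 than in the libraries labelled LNCaP under R1881 (median 1.54), against 37.8% of all genes.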

How the data were processed

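Polyadenylated RNA of 12 libraries was sequenced as paired reads. Per the file headers and the study's methods, the authors aligned trimmed reads with STAR and made counts of fragments per gene with featureCounts (GRCh38, Ensembl 83, without strand, fragments shared by genes left uncounted), and these deposited counts are raw. The treatment protocol in the labels describes siRNA, so groups were taken from the titles.

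Counts were scaled by TMM and fitted with edgeR 4.0.16 (limma 3.58.1, R 4.3.3) by quasi-likelihood F tests on genes passing the filter on low counts, and p-values were adjusted by Benjamini-Hochberg across every gene in the fit, with a threshold of 0.05. The C4-2 fit held 8 libraries, the LNCaP fit 4 and the comparison of lines 8. CPM values use TMM library sizes. The SE printed after ± was derived from the F test, as the absolute log2 fold change divided by the square root of F. The steps were run on simulated counts with planted changes and the same spread for every gene, unlike the real libraries. Only the combination in each line and its difference between lines were simulated, not the interaction. DESeq2 1.42.0, other scalings, no filter, length correction, a replicate block and leaving out each library were the alternatives. Corrections for GC content were added after seeing the data.

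Members, gene lists and functional parts were chosen with earlier results of these data known. In each comparison the 3 highest and 3 lowest called members are named, with the highest member per kilobase of each complex and all genes of complex II. Others are named as examples of a complex, a part or a paralog pair.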

Additional observations from a re-analysis of the deposited data

Results flagged for a closer look

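Tested differences between effects picked out these results. The effect of TCE-5002 in C4-2 differed with namoline present: 65 members had an interaction called below 0 and 3 above it (edgeR, adjusted over all genes), against 27.9% and 25.6% of all genes. The named members were ATP5MC1 (-3.01), ATP5MC3 (-2.63) and COX6B1 (-2.40) below, and NDUFA4L2 (1.42), NDUFV2 (1.11) and COX7A2L (0.82) above. The NDUFA4L2 value was not called by DESeq2 (1.47, adjusted p = 0.11). The effect of the combination differed between C4-2 and the libraries labelled LNCaP for 51 members called below 0 and 7 above it, against 25.9% and 21.7% of all genes. The named members were ATP5MG (-1.32), UQCRH (-1.31) and NDUFA4 (-1.26) below, and NDUFV2 (1.91), NDUFS8 (0.88) and NDUFS7 (0.87) above. Without LNCaP combination replicate 1, ATP5F1D (0.39, adjusted p = 0.037) and COX5B (-0.37, adjusted p = 0.020) were also called.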

How the results depend on the processing

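Of 306 recomputed counts and medians, 254 stayed within the limits set and 52 moved. With library totals alone, namoline gave 11 higher and 8 lower, and the medians were 0.0663 for namoline, 0.51 for TCE-5002, -0.39 for the combination, -0.98 for the interaction and 0.17 for the combination in LNCaP. The GC correction gave 35 higher for namoline, 2 lower for TCE-5002, 16 higher for the combination, and medians of -0.996 (interaction) and -0.52 (difference between lines). With the replicate block added to it, these were 36, 2, 16, -0.995 and -0.52, with 5 lower for namoline. The length correction, alone or with the replicate block, gave medians of -0.90 for the interaction and 0.52 for C4-2 against LNCaP, where COX8A reversed to -0.0626 and, with the block, -0.063. With the block, 12 members rose with the combination. The replicate block alone gave 32 higher for namoline and 11 higher for the combination. The labels tie no number to a shared culture, and deviations of same-numbered libraries correlated at -0.011 to 0.327 within C4-2, 0.075 within LNCaP and -0.471 to -0.050 between lines, so the numbers were not treated as pairs. Fitting only the groups compared gave 34 higher for namoline and 15 higher for the combination. Without a filter, 4 members were called above 0 in the difference between lines. The cause of these shifts was not tested.

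Leaving out each library gave 7 to 11 higher, 1 to 3 lower and medians of 0.13 to 0.27 for namoline, 45 to 71, 1 to 2 and 0.54 to 0.71 for TCE-5002, and 4 to 5, 15 to 27 and -0.33 to -0.16 for the combination. The ranges were 2 to 4, 60 to 69 and -1.19 to -0.91 for the interaction and 34 to 45, 7 to 10 and 0.22 to 0.42 for the combination in LNCaP. They were 58 to 61, 4 to 6 and 0.60 to 0.69 for C4-2 against LNCaP, and 4 to 10, 44 to 55 and -0.73 to -0.51 for the difference. Where a group kept 1 library, it was assumed to vary like the others.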

Other observations

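Of the 14 regulators of respiratory genes listed, 6 rose and 4 fell with namoline (42.9% and 28.6%, against 18.7% and 16.3% of all genes). With TCE-5002 3 rose and 3 fell (21.4% each), and with the combination 3 and 4 (21.4% and 28.6%), near the all-gene shares of 19.9% and 16.7% and of 24.8% and 25.6%. The following members are examples chosen after their values were seen. PPARGC1A, a coactivator of mitochondrial genes, fell with namoline (log2 -1.33), TCE-5002 (-1.71) and the combination (-2.48), and in the libraries labelled LNCaP it rose under both inhibitors (0.82). Its relative PPARGC1B rose with namoline (1.19) and TCE-5002 (0.74) and fell with the combination (-0.43). ESRRA, a nuclear receptor of the same programme, rose with namoline (1.11) and TCE-5002 (0.92) and had 0.03 with the combination. NRF1, the factor named by 1 of the promoter strings, fell with namoline (-1.50) and TCE-5002 (-1.58), and its interaction was 2.75. GABPA, a factor tied to the ETS-type string, moved less. It fell with namoline (-0.44), was not called with TCE-5002 (-0.33) or the combination (-0.0078), and had an interaction of 0.76. The factor of the YY1-type string is not described here.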
